A study of Mus musculus with 12 samples.

Results

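The mitochondrial ribosomal protein genes are the nuclear genes for the proteins of the ribosome inside mitochondria. They were taken here as every gene symbol that begins with Mrpl (large subunit) or Mrps (small subunit), goes on with a number and ends with at most 1 letter, with at least 10 counts in 4 or more of the 12 libraries. All 78 matching symbols of the 26264 genes in the tables met that minimum, and all 78 were among the 13499 genes tested. No member lay near the minimum, since the smallest count of any member in any library was 92. By current names 51 members belong to the large subunit and 26 to the small subunit; Mrps30 and Mrps18a, despite their symbols, sit in the large one. Mrps36 matches the rule by its old symbol but encodes a subunit of the alpha-ketoglutarate dehydrogenase complex, and it is counted among the 78 and in neither subunit.

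RNA was sequenced from mouse tibialis anterior, a fast-twitch muscle at the front of the lower leg, and the series title places it in recovery from acute and disuse injury. The gel group (4 libraries) received 50 µl of an extracellular matrix gel at 6 mg per ml in the left leg, the PBS group (4 libraries) received 50 µl of phosphate-buffered saline, the vehicle, in the right leg, and the third group (4 libraries) was uninjured muscle. The side of the body goes with the treatment in every injected library, so side and treatment cannot be told apart. In the sources used here neither the kind of injury nor the time of collection is given, nor the strain, sex or age of the mice. 

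The mitochondrial ribosome translates the few messenger RNAs of the mitochondrial genome, all for subunits of the respiratory chain and ATP synthase. Its RNA is made in the organelle, while its proteins are encoded in the nucleus, made on cytosolic ribosomes and imported. Many of its proteins descend from bacterial ribosomal proteins and others are specific to mitochondria. The transcription factors NRF1, GABPA and YY1 and the coactivators of the PGC-1 family are known regulators of nuclear genes for mitochondrial proteins, and skeletal muscle is rich in mitochondria.

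The promoter windows of the 4 members with the largest differences between gel and PBS muscle are shown, because these members carry the results below: Mrps18b and Mrpl37 were lower and Mrpl53 and Mrpl33 higher in gel muscle. Each window runs from 250 bases before to 50 bases after the gene's start, 5′ to 3′ on the gene's own strand, and comes from RefSeq on build GRCm38.p6, whereas the counts come from build mm39. Capitals mark matches on either strand to GCATGCGC (the NRF1 motif), CCGGAAG (ETS factors, GABPA among them), AAGATGGC (YY1) and CACGTG (the E-box of factors such as MYC). The windows are Mrps18b at chr17:35916391-35916690, minus strand; Mrpl37 at chr4:107066817-107067116, minus strand; Mrpl53 at chr6:83108858-83109157, plus strand; and Mrpl33 at chr5:31613701-31614000, plus strand.
Mrps18b: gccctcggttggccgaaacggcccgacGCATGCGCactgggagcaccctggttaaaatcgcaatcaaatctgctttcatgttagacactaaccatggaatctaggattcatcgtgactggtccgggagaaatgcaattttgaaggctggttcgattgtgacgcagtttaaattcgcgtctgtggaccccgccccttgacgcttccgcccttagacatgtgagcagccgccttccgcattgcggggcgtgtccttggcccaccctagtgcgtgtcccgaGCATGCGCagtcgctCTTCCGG
Mrpl37: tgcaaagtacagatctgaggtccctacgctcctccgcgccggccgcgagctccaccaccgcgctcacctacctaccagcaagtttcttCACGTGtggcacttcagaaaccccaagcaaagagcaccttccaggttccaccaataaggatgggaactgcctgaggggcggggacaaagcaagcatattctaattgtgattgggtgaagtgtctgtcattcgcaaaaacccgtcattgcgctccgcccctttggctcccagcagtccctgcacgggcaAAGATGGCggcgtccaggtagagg
Mrpl53: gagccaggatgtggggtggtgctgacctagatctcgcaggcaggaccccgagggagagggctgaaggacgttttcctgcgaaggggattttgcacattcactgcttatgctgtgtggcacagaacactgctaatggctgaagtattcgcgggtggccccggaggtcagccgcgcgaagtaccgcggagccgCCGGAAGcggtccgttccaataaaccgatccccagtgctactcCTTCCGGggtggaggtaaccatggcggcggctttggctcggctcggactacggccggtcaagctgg
Mrpl33: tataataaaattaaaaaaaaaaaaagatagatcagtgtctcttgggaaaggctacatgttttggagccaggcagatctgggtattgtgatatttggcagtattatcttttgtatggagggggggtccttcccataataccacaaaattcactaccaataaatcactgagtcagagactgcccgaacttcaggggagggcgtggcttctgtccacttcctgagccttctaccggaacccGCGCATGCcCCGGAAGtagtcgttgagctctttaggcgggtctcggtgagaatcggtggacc

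Mrps18b held the NRF1 letters at position -223 from the start and again at 28, followed by an ETS match at 43. Mrpl37 held the YY1 letters at 26 and an E-box at -162. Mrpl53 held ETS letters at -59 and -16, and Mrpl33 had an NRF1 match at -12 with an ETS match close behind it, at -3. Windows were found for 69 of the 78 members. The ETS letters were in 26 of these 69 (37.7%), against 9.93% of the windows of 27025 genes, the NRF1 letters in 8 (11.6% against 3.05%), the YY1 letters in 12 (17.4% against 3.19%) and the E-box in 5 (7.25% against 8.09%). The 27025 are all genes with a window, not only the 13499 tested here, whereas all members were tested, so the sets are not alike. The windows of Mrps18b, which fell, and of Mrpl33, which rose, both held the NRF1 and ETS letters. Both genes were chosen for their fold changes, and a link between letters and direction was not tested. A match is a run of letters and no evidence of binding, and a missing match says nothing of the factor.

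Library totals ran from 15626086 to 22182483 counts, and the 78 members together took between 0.366% and 0.466% of them. Fast fibre markers (12 of 12 tested) summed to 154911 CPM or more in every library. CPM are counts scaled to a common library total, here with edgeR's trimmed-mean factors. Some marker lists rose in gel versus PBS: all 14 macrophage markers, all 7 tested proliferation markers and 4 of 9 fibroblast markers. None of the 6 endothelial or 7 slow fibre markers rose or fell there, and of the 12 fast fibre markers 1 rose and 4 fell. Of all genes tested 29.8% rose or fell. The summed macrophage markers were 102 to 1898 CPM in gel, 29.9 to 62.3 in PBS and 40.8 to 83.7 in uninjured libraries. The summed fast fibre markers were 154911 to 233751 CPM in gel, 229945 to 263833 in PBS and 259726 to 291777 in uninjured libraries. Gel library 3 differed from the rest of its group: it had the lowest macrophage sum (102 CPM, against a gel median of 1340) and the highest fast fibre sum (233751). The part of these cells in the results below was not tested, and in bulk tissue fewer cells of a type and less RNA per cell cannot be told apart.

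As a set, the members differed between groups by less than the spread among the injected libraries. Their summed level was 4259 ± 13.3 CPM in uninjured, 4165 ± 356 in PBS and 3930 ± 410 in gel muscle (mean ± SD, n = 4 libraries each). By library it was 4239, 4267, 4266 and 4263 in the uninjured group, 3704, 4138, 4564 and 4255 in the PBS group and 3871, 3573, 4517 and 3762 in the gel group. The uninjured libraries lay close together, between 4239 and 4267, the injected libraries spread over a wider range, and the PBS and gel ranges overlapped each other and took in the uninjured range. Gel library 3 and PBS library 3 were above every uninjured library.

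**Figure D1:**
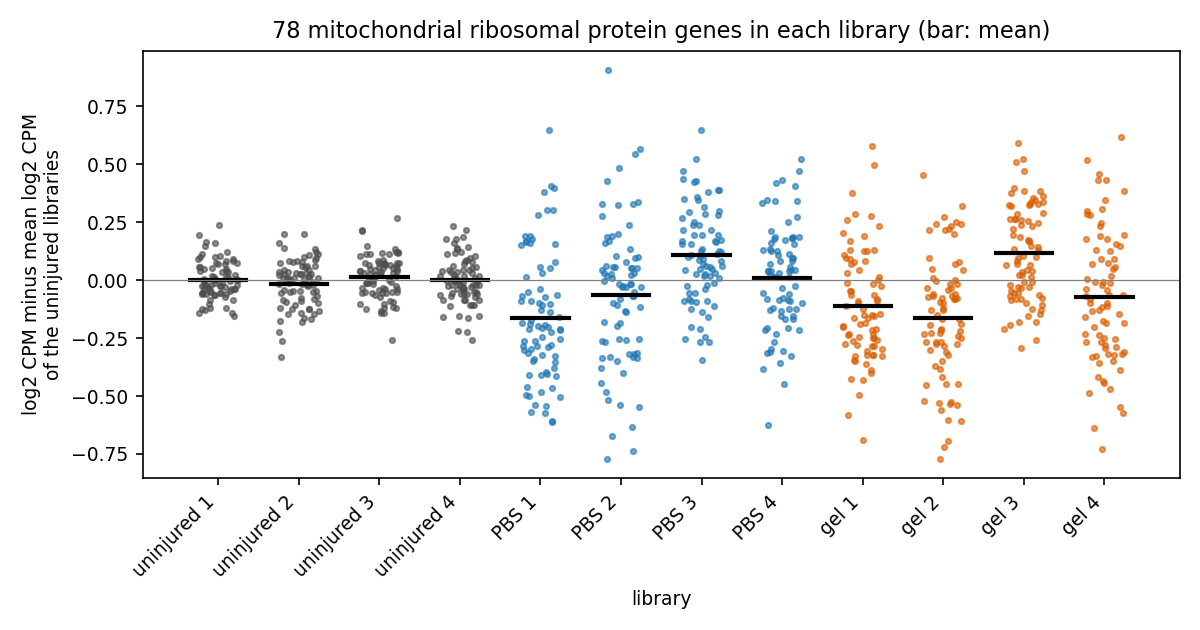
Each point is 1 of the 78 members in 1 library, as its log2 CPM minus its mean log2 CPM over the 4 uninjured libraries (vertical axis), and the bar is the mean over members. The uninjured points sit close to 0, the injected points fan out in both directions, and the means of gel library 3 (0.12) and PBS library 3 (0.11) lie above 0 while those of gel library 2 (-0.16) and PBS library 1 (-0.16) lie below.

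The same held member by member. The mean log2 difference of the 78 members from the uninjured mean was -0.11, -0.16, 0.12 and -0.07 in gel libraries 1 to 4 and -0.16, -0.06, 0.11 and 0.01 in PBS libraries 1 to 4. Members below their uninjured mean numbered 55, 61, 27 and 49 in the gel libraries and 58, 44, 22 and 34 in the PBS libraries, so gel library 3 went against the other three of its group, and PBS libraries 1 and 2 differed in direction from 3 and 4. The large-subunit mean minus the small-subunit mean was between -0.03 and 0.07 in all 12 libraries. It was above 0 in PBS libraries 1 to 4 (0.04 to 0.07). In PBS library 4 the large-subunit mean was 0.03 and the small-subunit mean -0.03. In PBS versus uninjured 20 of 26 small-subunit members and 27 of 51 large-subunit members had a negative fold change. The median SD of a member's log2 CPM within a group was 0.09 in uninjured, 0.16 in PBS and 0.19 in gel muscle, against 0.19, 0.24 and 0.33 over all genes tested.

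Levels within the set differed far more than they did between groups. Per kilobase of transcript, Mrpl42 and Mrps21 were the highest in uninjured muscle, at 610 and 442 CPM per kilobase, followed by Mrpl30 (207) and Mrpl52 (205). Mrpl42 is a large-subunit protein specific to mitochondria and Mrps21 a small-subunit protein of a bacterial family. The lowest were Mrpl19 at 2.62, Mrps25 at 3.76 and Mrpl47 at 3.98 CPM per kilobase. The transcript length used is the median over a gene's annotated coding transcripts, which may not be the form made in muscle, and Mrpl19 and Mrps25 have the longest such values among these (5000 and 6073 bases).

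The first comparison sets vehicle-injected against uninjured muscle. Of the 78 members 2 were called at an adjusted p under 0.05 (edgeR quasi-likelihood test, Benjamini-Hochberg over 13499 genes), 1 higher and 1 lower, against 6.17% of all genes tested (2.79% higher and 3.39% lower). Mrps31, a small-subunit protein specific to mitochondria, was at 20.7, 29.9, 24.96 and 22.9 CPM in PBS libraries 1 to 4 and at 15.8, 15.7, 16.4 and 15.8 in the uninjured libraries. Every PBS library was above every uninjured one, and Mrps31 rose by a log2 fold change of 0.63 ± 0.14 (SE, n = 4 and 4, edgeR adjusted p = 0.0152). Mrpl23, which belongs to a conserved family at the exit of the peptide tunnel, was at 58.4, 59.5, 72.4 and 70.4 CPM in PBS and 82.7, 90.7, 91.5 and 83.5 in uninjured muscle. These groups did not overlap either, and Mrpl23 fell by 0.42 ± 0.11 (edgeR adjusted p = 0.0326).

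Just outside the threshold lay Mrpl33 at -0.47 ± 0.13 (edgeR adjusted p = 0.0520), Mrpl37 at 0.47 ± 0.14 (0.0528), Mrpl44 at 0.46 ± 0.14 (0.0601) and Mrps18c at -0.46 ± 0.14 (0.0661). In all 4 the PBS and uninjured libraries did not overlap, and 15 of the 78 members (19.2%) had such separate groups, against 20.6% of all genes; 16 (20.5%) had an unadjusted p under 0.05, against 22.4%. The median over the members was -0.03 on the log2 scale, with single members from -0.47 to 0.63, against 0.00 over all genes. For 66 of the 78 members (84.6%) the 95% interval of the fold change lay within 1.5-fold in either direction, against 35.6% of all genes. This share depends on precision as well as on the size of the change. In each of the comparisons the median SE was 0.13 for the members and 0.20 over all genes. The contrast with all genes, here and below, is therefore not a measure of stability alone. The call of Mrps31 was lost without PBS library 2 (edgeR adjusted p = 0.0658) or uninjured library 2 (0.0517) or 4 (0.0547). That of Mrpl23 was lost without PBS library 1 (0.111) or 2 (0.116) or without any single uninjured library (0.0598 to 0.112). It was also lost without a filter on low counts (edgeR adjusted p = 0.0595) and with an offset for transcript length (0.0730). Some other fits gave more calls and some gave fewer. The gel libraries share in the main estimate of spread, and the part of this in these counts was not tested. No member was called without PBS library 2, uninjured library 2 or uninjured library 4 (2.95%, 3.13% and 2.71% of all genes called). Without gel library 3 there were 10 calls, 4 higher and 6 lower, with 12.1% of all genes called. Mrpl33, Mrpl37, Mrpl44 and Mrps18c were among them. With the PBS and uninjured groups alone there were 13, with 18.3% of all genes called.

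**Figure D2:**
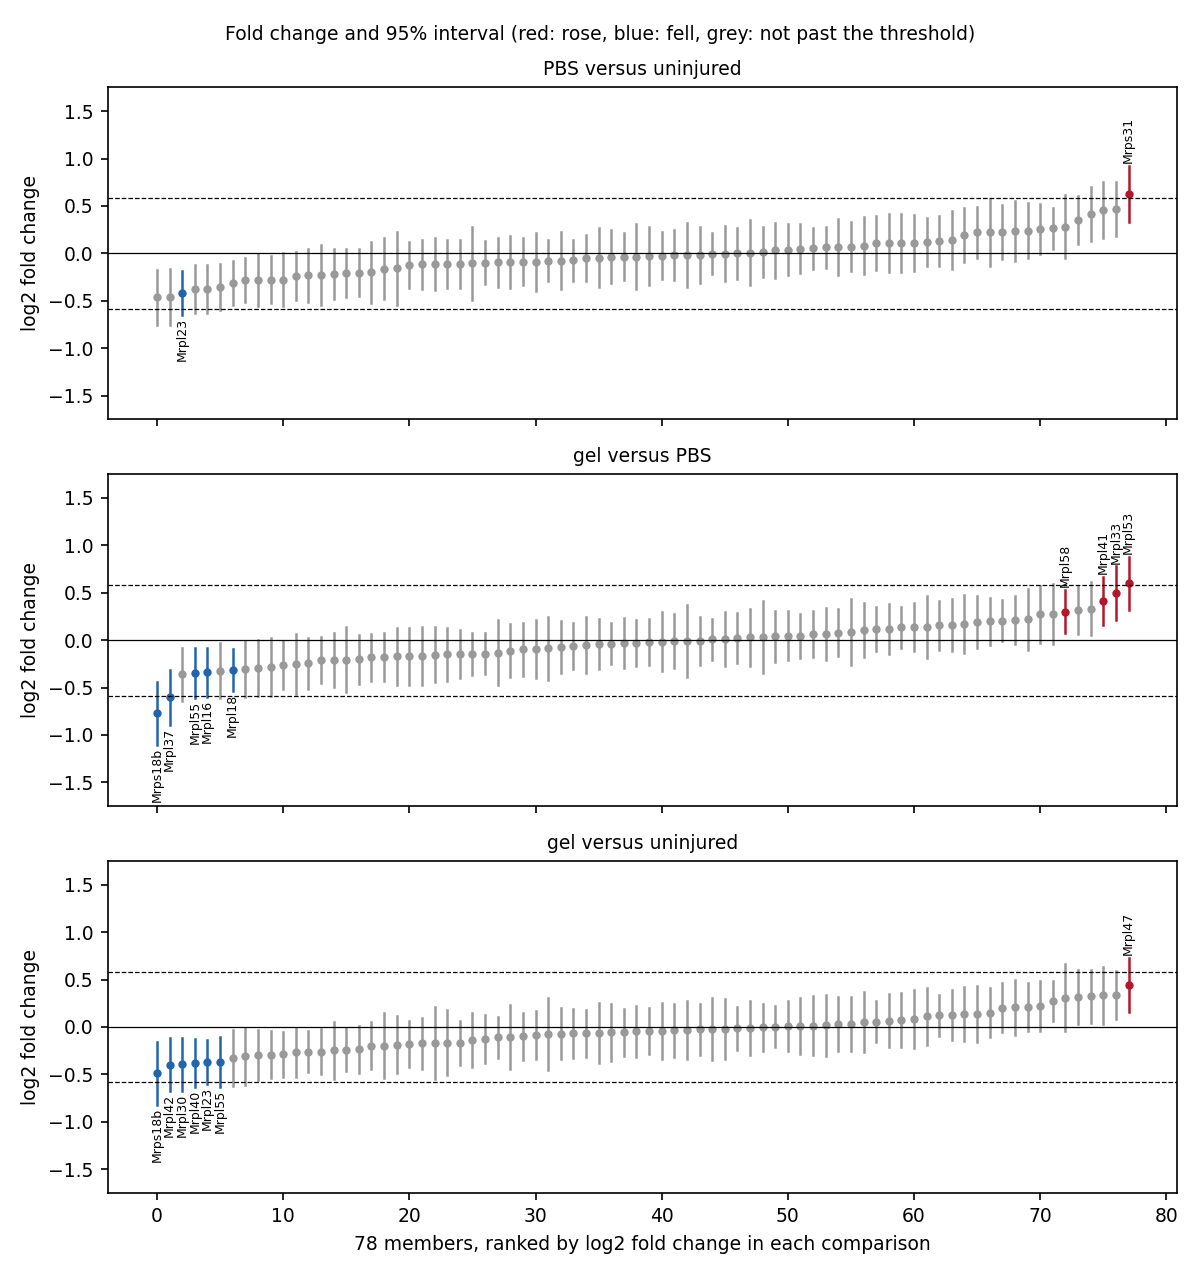
The 78 members are ranked on the horizontal axis by their log2 fold change (vertical axis) in each comparison, with 95% intervals; red members rose, blue members fell, grey ones did not pass the threshold, and dashed lines mark 1.5-fold. Most intervals stay between the dashed lines (66, 64 and 64 of 78 from top to bottom), and the called members lie at both ends in gel versus PBS.

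Gel against PBS muscle compares the gel with its vehicle. Of the 78 members 9 were called (11.5%), 4 higher and 5 lower, against 29.8% of all genes tested (16.6% higher, 13.2% lower), and 15 (19.2%) had an unadjusted p under 0.05, against 41.8%. The median over the members was -0.03, against 0.04 over all genes, and single members ran from -0.77 to 0.60. The intervals of 64 members (82.1%) lay within 1.5-fold, against 27.4% of all genes. Mrps18b, Mrpl37 and Mrpl53 were called under each of the alternative settings and each omission of 1 library that was run.

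Mrps18b is 1 of the 3 vertebrate relatives of the bacterial small-subunit protein S18, and its promoter is the first shown above. Its level was 17.5, 17.2, 29.1 and 17.1 CPM in gel libraries 1 to 4, 31.9, 35.8, 38.3 and 31.7 in PBS and 27.6, 29.0, 28.9 and 27.8 in uninjured libraries. Every gel library was below every PBS library, and gel library 3 was at the uninjured level while the other gel libraries were well under it. Mrps18b fell by 0.77 ± 0.16 on the log2 scale (SE, n = 4 and 4, edgeR adjusted p = 0.00346). Without gel library 3 the difference was -1.01 (edgeR adjusted p = 2.1e-06). Of its relatives, Mrps18a was at -0.31 ± 0.14 (0.106) and Mrps18c at 0.27 ± 0.14 (0.153), and neither passed the threshold with all libraries; without gel library 3 Mrps18a did (-0.42, 0.0136).

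Mrpl37, a large-subunit protein specific to mitochondria, was at 93.7, 91.8, 137 and 93.1 CPM in gel, 150, 166, 164 and 151 in PBS and 123, 121, 107 and 106 in uninjured libraries. The gel libraries were below all PBS libraries, the PBS libraries were above all uninjured ones, and gel library 3 was again the highest of its group. Mrpl37 fell by 0.60 ± 0.14 between PBS and gel (edgeR adjusted p = 0.00502), and without gel library 3 the difference was -0.78 (1.05e-05). In this gene the gel and PBS groups lay on opposite sides of the uninjured group except for gel library 3.

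Mrpl53, another large-subunit protein specific to mitochondria, was at 33.7, 35.7, 34.98 and 46.0 CPM in gel, 23.7, 20.7, 28.1 and 26.95 in PBS and 29.9, 26.5, 31.0 and 32.9 in uninjured libraries. Gel and PBS did not overlap, and here gel library 3 stood within its group. Mrpl53 rose by 0.60 ± 0.13 (edgeR adjusted p = 0.00480). Mrpl33, of a bacterial large-subunit family, was at 37.4, 35.6, 39.9 and 45.4 CPM in gel, 25.3, 23.2, 30.5 and 33.6 in PBS and 37.3, 35.5, 44.9 and 37.5 in uninjured libraries. Mrpl33 rose by 0.49 ± 0.13 against PBS (edgeR adjusted p = 0.0132), and the gel libraries were at the level of uninjured muscle (0.03 in gel versus uninjured). Its call was lost without gel library 4 (0.0647) or PBS library 2 (0.0517).

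**Figure D3:**
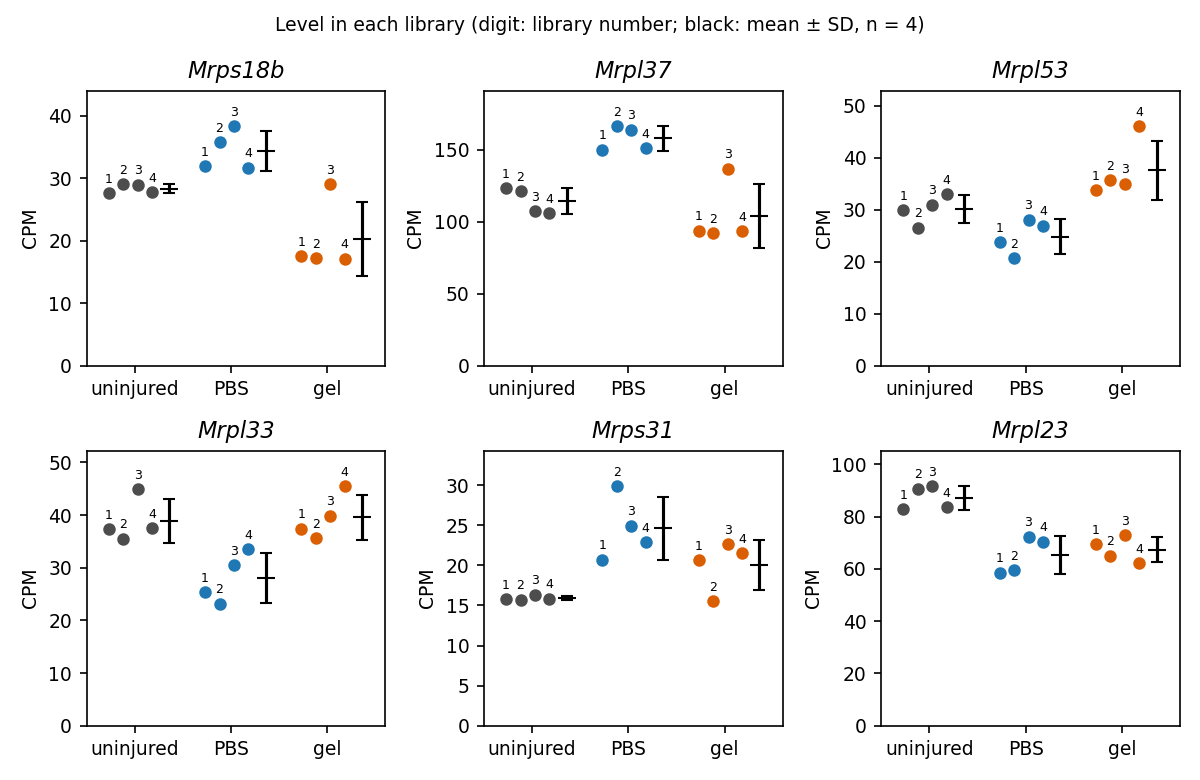
CPM (vertical axis, from 0) of 6 members in each library, with the library's number at each point and the mean ± SD of the 4 libraries in black. Mrps18b and Mrpl37 are lower in gel than in PBS with gel library 3 nearest to PBS, Mrpl53 and Mrpl33 are higher, Mrps31 is raised in PBS, and Mrpl23 is lower in both injected groups.

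The other 5 calls between gel and PBS were smaller and less stable. Mrpl41 (0.41 ± 0.12, edgeR adjusted p = 0.0180) and Mrpl58 (0.30 ± 0.11, 0.0472), a hydrolase that frees stalled ribosomes, were the other members that rose. Mrpl18 (-0.31 ± 0.10, 0.0329), Mrpl55 (-0.35 ± 0.12, 0.0445) and Mrpl16 (-0.34 ± 0.12, 0.0476), all of bacterial large-subunit families, were the others that fell. Single omissions ended the call of Mrpl41 without gel 4 (0.0977) or PBS 1 (0.0582), and that of Mrpl18 without gel 2 (0.0805), gel 4 (0.0763), PBS 3 (0.0710) or PBS 4 (0.0664). The call of Mrpl55 was lost under 9 of 12 omissions (0.0519 to 0.120; kept without gel 1, gel 3 or PBS 1), that of Mrpl16 under 10 (0.0569 to 0.135; kept without gel 3 or PBS 4) and that of Mrpl58 under 11 (0.0640 to 0.147; kept without PBS 3). With gel and PBS libraries of the same number paired as legs of 1 animal, 4 members were called, against 22.5% of all genes in that fit, and Mrpl41 (0.0523), Mrpl18 (0.119), Mrpl55 (0.108), Mrpl16 (0.0978) and Mrpl58 (0.133) were not.

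By pair, 34, 45, 36 and 48 of the 78 members were lower in the gel leg in numbers 1 to 4, so no pair moved the whole set 1 way. In all 4 pairs 13 members were lower and 12 higher. The same count was not made over all genes, so these counts have no background beside them. Mrps18b was lower by 0.86, 1.05, 0.40 and 0.88 on the log2 scale in pairs 1 to 4, and Mrpl37 by 0.68, 0.85, 0.26 and 0.70. Mrpl53 was higher by 0.51, 0.78, 0.32 and 0.77 and Mrpl33 by 0.56, 0.62, 0.39 and 0.44. Pair 3, which holds gel library 3, gave the smallest difference in each of these 4 genes.

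The count of called members turned on single libraries. Without gel library 3 the calls between gel and PBS went to 22, 4 higher and 18 lower, with 42.7% of all genes called in that fit, so that the members' share (28.2%) was again below the background; of the 9 calls 8 were kept. The members' 18 lower calls (23.1%) then stood beside 20% of all genes called lower and 22.7% called higher. Without gel library 4 there were 3 calls, with 18.1% of all genes called in that fit. Without gel library 2 or PBS library 2 there were 5, with 20.5% and 21.6% of all genes called. Scaling by library totals alone raised the median of all genes by 0.20 in gel versus PBS and by 0.27 in gel versus uninjured, and the split of calls became 19 higher and 2 lower (with 32.7% of all genes called) and 21 higher with none lower (33.2%), 26.9% of the members each time; relative to that shift the members' median was 0.08 below that of all genes in both comparisons.

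Gel against uninjured muscle gave 7 called members (8.97%), 1 higher and 6 lower, against 25.6% of all genes (14.5% higher, 11.1% lower). The median was -0.04, against 0.03 over all genes, with single members from -0.49 to 0.44, and 64 members had intervals within 1.5-fold, against 30.6% of all genes. Groups did not overlap in 19 members (24.4%), against 23% of all genes, while between gel and PBS this held for 9 members (11.5%), against 20.1%. Gel versus uninjured and gel versus PBS share the gel libraries and are not independent. The same holds for PBS versus uninjured and gel versus PBS, which share the PBS libraries with opposite sign.

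Mrpl47, of the family of the bacterial protein L29, was the member that rose, at 19.99, 18.3, 16.1 and 18.4 CPM in gel and 12.1, 13.5, 14.0 and 13.9 in uninjured libraries (0.44 ± 0.13, edgeR adjusted p = 0.0241). Its PBS libraries, at 11.7, 13.9, 17.0 and 15.1 CPM, ran across both ranges. Mrpl23 fell here too (-0.37 ± 0.11, 0.0208), at 69.4, 65.1, 72.8 and 62.1 CPM in gel, so that all 8 injected libraries were below the 4 uninjured ones. Mrps18b fell by 0.49 ± 0.16 (0.0321), with gel library 3 (29.1 CPM) level with the highest uninjured library (29.0).

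Mrpl42, the member with the highest level, was at 313, 280, 374 and 259 CPM in gel and 397, 378, 410 and 428 in uninjured libraries, and fell by 0.40 ± 0.13 (edgeR adjusted p = 0.0383). Mrpl30 (-0.39 ± 0.13, 0.0382), Mrpl40 (-0.38 ± 0.12, 0.0306) and Mrpl55 (-0.37 ± 0.12, 0.0384) fell by similar amounts, and in each of these 3 and in Mrpl42 every gel library was below every uninjured one. The large subunit gave 6 of the 7 calls and the small subunit 1, from 51 and 26 members.

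Each of these 7 calls was lost under 4 to 7 of the 12 omissions. Without uninjured 1 there were 2 calls and without uninjured 4 there were 3, all among the 7 (20.1% and 19.7% of all genes called). Without gel 1 there were 4 calls, 3 of them among the 7 (23.9% of all genes called). Without gel 2 there was 1 call, of another member (17.7% of all genes). No member was called in edgeR without gel 4, uninjured 2 or uninjured 3, where 16.8%, 18.3% and 18% of all genes were called. In the fit with all libraries 21 members (26.9%) had an unadjusted p under 0.05, against 38.6% of all genes. DESeq2 called 9 members and limma voom 8, with 26% and 22.8% of all genes called. Without gel library 3 there were 19 calls, 1 higher and 18 lower (23.1%), where 17.9% of all genes were called lower and 20.4% higher, 38.3% in all. The median of the members was then -0.13.

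Cytosolic ribosomal proteins and respiratory chain subunits were described in the same fit. Both lists were taken by symbol pattern, and the cytosolic list includes symbols such as Rpl7l1, Rpl22l1 and Rps27l. The 83 cytosolic ribosomal protein genes had a median of -0.34 in PBS versus uninjured, with 15 lower calls (18.1%, against 6.17% of all genes). In gel versus PBS the median was 0.31, with 33 higher calls and 1 lower (41%, against 29.8%). In gel versus uninjured it was -0.02, with 3 higher and 4 lower calls (8.43%, against 25.6%). The 81 nuclear-encoded subunits of the respiratory chain had medians of -0.16, 0.07 and -0.10. Of these 7, 14 and 6 were called (8.64%, 17.3% and 7.41%, against 6.17%, 29.8% and 25.6% of all genes). The corresponding medians of the mitochondrial ribosomal proteins were -0.03, -0.03 and -0.04. The difference between these lists was not tested, and scaling by library totals alone shifts every list in the comparisons with gel upward by the amounts given above.

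**Figure D4:**
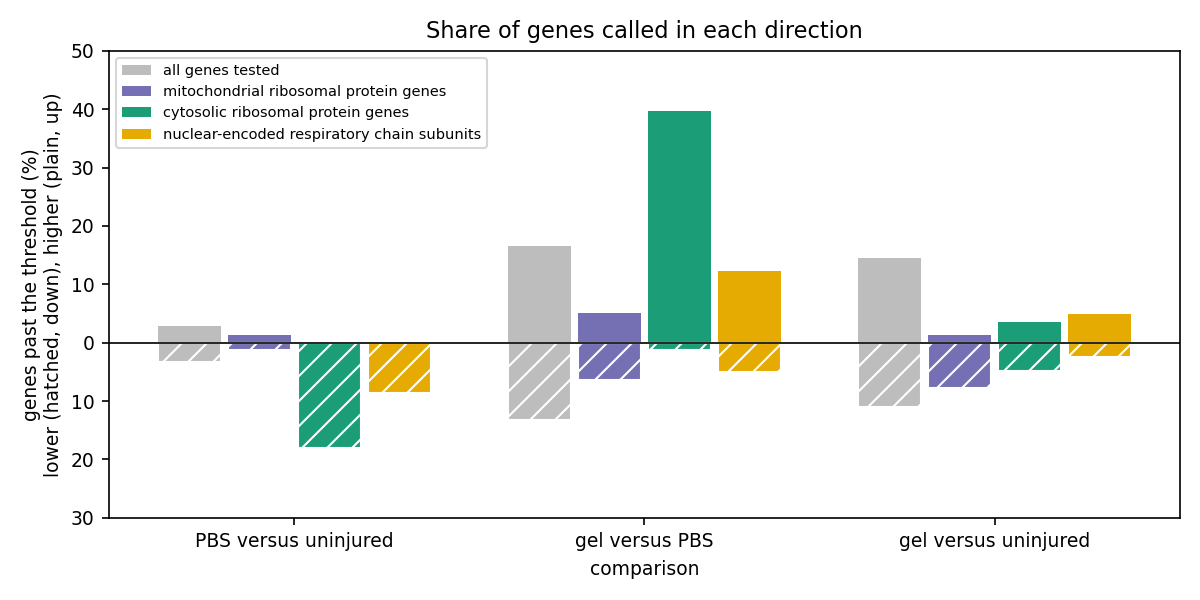
Bars give the share of each list past the adjusted threshold in each comparison (vertical axis, percent), upward for higher and downward with hatching for lower genes. The mitochondrial ribosomal protein genes (2, 9 and 7 of 78) have shorter bars than all genes tested in every comparison, whereas the cytosolic ribosomal proteins reach 33 higher of 83 in gel versus PBS.

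The rest of the mitochondrial translation system was described from lists chosen with earlier results of these data known. Among 5 mitoribosome proteins with other names, Ptcd3, a small-subunit protein, rose in PBS versus uninjured (0.61 ± 0.15, edgeR adjusted p = 0.0224), and Gadd45gip1, a large-subunit protein near the tunnel exit, rose in gel versus PBS (0.54 ± 0.12, 0.00486). Gadd45gip1 was at 92.8, 82.4, 78.5 and 92.5 CPM in gel and 52.5, 53.3, 71.7 and 60.8 in PBS, with no overlap, and its call held under every omission. That of Ptcd3 was lost without PBS 1 (0.0742), PBS 2 (0.0837), uninjured 2 (0.0763), uninjured 3 (0.0718) or uninjured 4 (0.0749).

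Of 14 tested translation factors 2 rose in PBS versus uninjured (14.3%, against 2.79% of all genes called higher). In gel versus PBS 5 fell (35.7%, against 13.2% of all genes called lower and 29.8% called in either direction). Those that fell were Mtrf1, a release factor (-0.83 ± 0.20, edgeR adjusted p = 0.00665), the elongation factors Gfm1 (-0.46 ± 0.14, 0.0222) and Tufm (-0.43 ± 0.13, 0.0247), Gfm2, which acts in ribosome recycling (-0.45 ± 0.14, 0.0223), and Taco1, an activator of cytochrome oxidase subunit translation (-0.78 ± 0.27, 0.0470). Gfm1 and Taco1 were the factors that rose in PBS versus uninjured (0.57 ± 0.14 and 1.24 ± 0.28). That comparison and gel versus PBS share the PBS libraries with opposite sign, so the rise and the fall are not independent. Both rises were lost without PBS 1 or 2 or uninjured 2, 3 or 4. The rise of Gfm1 was also lost without PBS 3 or uninjured 1 (edgeR adjusted p = 0.0574 to 0.0988 over both genes). The fall of Gfm1 was lost without gel 4 (0.0526) or PBS 2 (0.0667), that of Gfm2 without gel 1 (0.0556), gel 4 (0.0646), PBS 1 (0.0560) or PBS 2 (0.0669), and that of Tufm without gel 2 (0.0758), PBS 1 (0.0526), PBS 2 (0.0661) or PBS 3 (0.0598). The fall of Taco1 was lost under 10 omissions (0.0542 to 0.111, kept without gel 3 or PBS 4), and that of Mtrf1 held under all 12. In gel versus uninjured 1 translation factor rose and 0 fell (7.14%, against 25.6% of all genes called), with a median of 0.10. The factor that rose there was Mtif2 (0.37 ± 0.13, edgeR adjusted p = 0.0472), a call lost under 10 omissions (0.0597 to 0.124). Among the 17 mitochondrial aminoacyl-tRNA synthetases Ears2 rose in PBS versus uninjured (0.89 ± 0.19, edgeR adjusted p = 0.0113) and Yars2 fell in gel versus PBS (-0.69 ± 0.16, 0.00617). Both calls held under every omission, and that of Yars2 was lost with scaling by library totals alone (edgeR adjusted p = 0.0525).

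Of 23 assembly and RNA-modification factors 4 fell in gel versus PBS (17.4%, against 13.2% of all genes called lower), and 4 fell and 1 rose in gel versus uninjured (21.7%, against 25.6% of all genes called), shares near the background. Malsu1, which acts in large-subunit assembly, was at 18.1, 19.2, 25.09 and 16.9 CPM in gel, 28.7, 25.01, 32.2 and 33.0 in PBS and 34.0, 36.1, 39.3 and 33.2 in uninjured libraries. All gel libraries were below all uninjured ones, and gel and PBS overlapped at gel library 3 (25.09) and PBS library 2 (25.01). Malsu1 fell by 0.59 ± 0.14 against PBS (edgeR adjusted p = 0.00598) and by 0.85 ± 0.14 against uninjured (0.00072), and Fastkd2, which binds the large ribosomal RNA, fell by 0.68 ± 0.13 (0.00307) and 0.55 ± 0.14 (0.0084). These calls held under every omission of 1 library. With scaling by library totals alone that of Fastkd2 against uninjured was lost (edgeR adjusted p = 0.0809).

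Of 14 tested genes of mitochondrial transcription and RNA stability 2 rose and 3 fell in gel versus PBS (35.7%, against 29.8% of all genes), a share near the background. Among those that fell was the transcription factor Tfb2m (-0.56 ± 0.15, edgeR adjusted p = 0.0119). Of 10 regulators the coactivator Ppargc1b rose in both injected groups: it was at 15.7, 18.6, 15.5 and 18.4 CPM in uninjured, 39.4, 40.8, 50.1 and 37.5 in PBS and 59.6, 54.9, 63.4 and 40.4 in gel libraries. The 8 injected libraries were all above the uninjured ones. The log2 fold change was 1.30 ± 0.15 in PBS (0.000141) and 1.68 ± 0.15 in gel (1.36e-05) against uninjured muscle. Ppargc1a, its better known relative, fell in gel versus uninjured (-0.64, 0.0279), a call lost without gel 1, 2 or 4 or uninjured 2, 3 or 4 (0.0524 to 0.0867).

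Yy1 fell in gel versus uninjured (-0.43 ± 0.11, edgeR adjusted p = 0.0120), and Myc fell in PBS versus uninjured (-0.98 ± 0.20, 0.00947), both under every omission. With scaling by library totals alone the call of Yy1 was lost (edgeR adjusted p = 0.232). Between gel and PBS, Gabpb1, the partner subunit of GABPA, rose (0.54 ± 0.18, edgeR adjusted p = 0.0362) and the nuclear receptor gene Esrra fell (-0.53 ± 0.17, 0.0255), 2 of 10 regulators (20%, against 29.8% of all genes). The call of Gabpb1 was lost without gel 1 (0.109), gel 2 (0.0905), PBS 1 (0.0590), PBS 3 (0.106), PBS 4 (0.106) or uninjured 3 (0.0521), and that of Esrra without gel 2 (0.0800), gel 4 (0.0795), PBS 2 (0.0634) or PBS 3 (0.0789). The differences of Nrf1 (0.03 ± 0.16, 0.918) and Gabpa (-0.32 ± 0.15, 0.121) between gel and PBS did not pass, and that of Nrf1 changed sign when gel library 2 or 3 or PBS library 3 or 4 was left out.

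Transcript length was set beside the fold changes of the members. Over the 78 members Spearman's rho between log2 fold change and length was 0.34 in PBS versus uninjured, -0.12 in gel versus PBS and 0.23 in gel versus uninjured, against 0.11, -0.09 and -0.02 over 12585 genes with a length. Genes of 1 library share its RNA quality, so these values are descriptions without a test. In PBS versus uninjured 29 of the 39 shorter members (median length split at 1052 bases) had a negative fold change and 18 of the 39 longer ones, with medians of -0.09 and 0.05. In gel versus PBS the counts were 17 and 27. With an offset that follows the length trend of each library, 3 members were called in PBS versus uninjured (3 higher, against 6.01% of all genes), 10 in gel versus PBS (1 higher and 9 lower, against 30.2%) and 9 in gel versus uninjured (against 26.2%). Mrpl23 (edgeR adjusted p = 0.0730) lost its call in PBS versus uninjured, and Mrpl33 (edgeR adjusted p = 0.0589), Mrpl41 (0.0837) and Mrpl58 (0.0612) lost their calls in gel versus PBS.

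**Figure D5:**
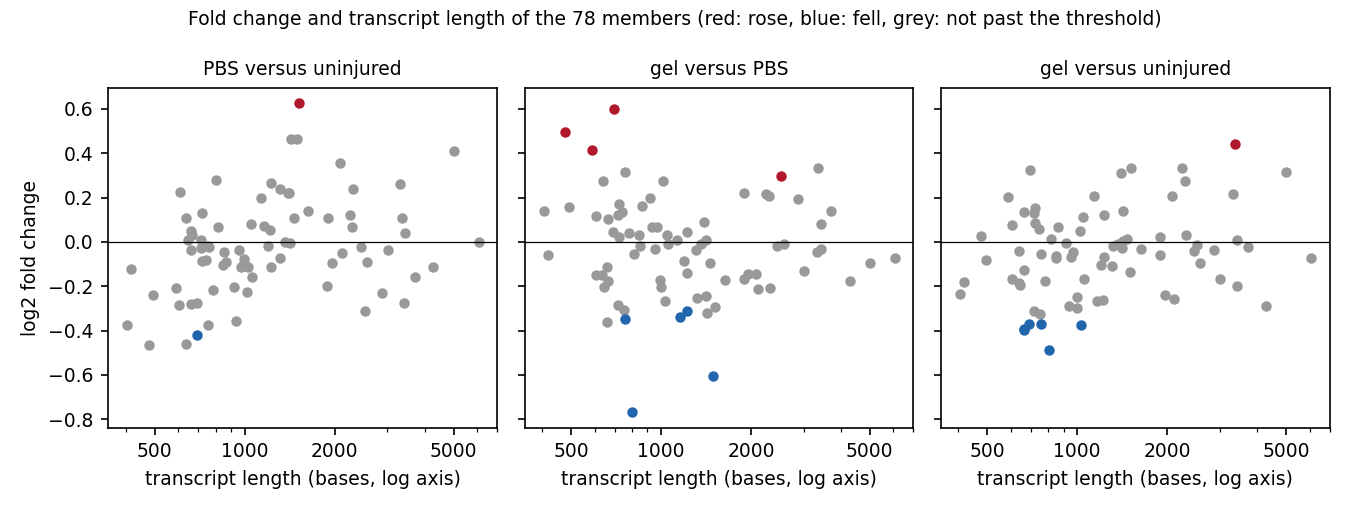
Each point is 1 member, with the annotated transcript length in bases (horizontal, log axis) and the log2 fold change (vertical) in each comparison; red members rose, blue fell and grey did not pass. In PBS versus uninjured short members lie lower (29 of 39 below 0) than long ones (18 of 39), and in gel versus PBS the 3 members that rose the most, Mrpl53, Mrpl33 and Mrpl41, are all short.

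Reads may also be shared with neighbours. In the RefSeq annotation of GRCm38.p6, 25 of the 78 members overlapped another gene, 20 of them a protein-coding one, and in the sources used here it is not said whether the counting used strand. Mrpl53 overlaps Ccdc142, which also rose in gel versus PBS (0.87, edgeR adjusted p = 0.00885), from 3.65 to 6.66 CPM. The part of shared reads in the values of either gene was not tested. Mrpl18 overlaps Tcp1, which fell (-0.47, 0.0223). Mrpl37 overlaps Cyb5rl, which was at 8.91 CPM in PBS and 8.42 in gel and did not pass (-0.08, 0.713). Mrps18b and Mrpl33 overlap non-coding genes that were not tested, and their values are less certain for that reason.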

How the data were processed

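RNA-seq libraries of mouse tibialis anterior were analysed from the deposited counts of reads per gene symbol, 1 table for each of the 12 libraries, which the authors had not normalised. Alignment with STAR is recorded in the file headers and, with build mm39 and edgeR, in the submitters' processing notes. In the sources used here neither versions nor the counting program, strand setting or annotation is given. No columns were left unmatched (0).

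Genes passing filterByExpr were scaled by trimmed-mean (TMM) factors and fitted with edgeR 4.0.16 in R 4.3.3 (robust quasi-likelihood, all 12 libraries, 9 residual degrees of freedom, 1 coefficient per group). P-values were adjusted by Benjamini and Hochberg over all 13499 genes tested, with a threshold of 0.05; "rose" and "fell" refer to genes past it. Each SE is the absolute log2 fold change over the root of its F statistic. CPM use these scaled totals, log2 CPM a prior count of 2. Labels do not say that the libraries are separate animals in each group, so p-values measure the spread between libraries. Depth was 15626086 to 22182483 counts.

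The members, lists and tests were chosen with earlier results of these data known. Named members are the 10 with the smallest p in each comparison, the 2 highest and 2 lowest of each subunit class, and Mrps18a, Mrps18b, Mrps18c, Mrpl12, Mrpl58 and Mrps12; from each other list of the translation system the 2 with the smallest p, and 7 regulators by name. Genes named beyond this (Gfm2, Tufm, partners of overlapping genes, and members given for their level) were chosen after their values were seen. The 1.5-fold bound and the length offset were also added after seeing the data. Alternatives were DESeq2 1.42.0, limma 3.58.1 with voom, other scalings and filters, the groups compared alone, a replicate block and each library left out.

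Gel and PBS libraries of the same number were read as legs of 1 animal, because the deposited names share that number with a side letter and the protocol puts gel left and PBS right; correlations of their deviations were 0.14, -0.06, 0.31 and 0.08, and in numbers 1, 2 and 4 the gel library correlated more with a PBS library of another number (0.18, 0.11 and 0.20), so the correlations alone do not show the pairing. Replicates were compared by chi-square over genes with at least 20 reads, and none agreed within sampling noise. Transcript lengths are medians over coding transcripts of GENCODE M21, matched for 93.2% of tested genes, and promoters come from RefSeq GRCm38.p6. The fit was tested on simulated counts.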

Additional observations from a re-analysis of the deposited data

Results flagged for a closer look

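Among 108 groups of 4 libraries (35 named members and the summed level), 5 held 1 library far from the other three by Dixon's ratio at the 95% level, where chance flags about 1 in 20 groups. Gel library 3 was the high one for Mrpl37, at 136.7 CPM with the other gel libraries at 91.8 to 93.7, and for Mrps18b, at 29.1 CPM with the others at 17.1 to 17.5. Both genes are the 2 members that fell the most in gel versus PBS muscle, and both falls were larger without that library (-0.78 and -1.01). Gel library 1 was high for Mrpl19, at 18.4 CPM against 15.4 to 15.9. PBS library 1 was low for Mrpl42, at 336 CPM against 407 to 415, and uninjured library 4 was low for Mrps9, at 27.2 CPM against 28.3 to 28.5.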

How the results depend on the processing

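Members called numbered 2 (PBS versus uninjured), 9 (gel versus PBS) and 7 (gel versus uninjured). Scaling by library totals alone gave 5, 21 and 21, with 8.13%, 32.7% and 33.2% of all genes called, and moved the median of the members to 0.17 in gel versus PBS and 0.22 in gel versus uninjured. The DESeq2 Wald test gave 7 in PBS versus uninjured (9.18% of all genes). The fit without a filter on low counts gave 1 there (3.8% of all genes) and 5 in gel versus PBS (19.2%). The groups compared alone gave 13, 5 and 4 (18.3%, 19.3% and 22.6% of all genes). The replicate block, which pairs legs of the same number, gave 4 in gel versus PBS (2 higher, 2 lower), with 22.5% of all genes called. Leaving out 1 library at a time gave 0 to 10, 3 to 22 and 0 to 19 members, with medians from -0.07 to 0.03, -0.10 to 0.00 and -0.13 to -0.03. In these fits 2.71% to 12.1%, 18.1% to 42.7% and 16.8% to 38.3% of all genes were called. Other alternatives kept these counts within 1.5 times. Some named values changed sign, none of them past the threshold as reported. Library totals alone turned gel versus uninjured for Mrpl12 (0.238), Mrpl58 (0.249), Mrps18c (0.0912), Mrps24 (0.00372), Chchd1 (0.0194), Polrmt (0.242) and Tfam (0.174), gel versus PBS for Mrps2 (0.0490) and Mrps24 (0.0160), and PBS versus uninjured for Mrps18a (0.0451) and Mrps9 (0.0603). The length offset turned Mrps18a (0.0711), Mrps9 (0.0262) and, in gel versus PBS, Nrf1 (-0.0150). Mrps9 was also above 0 with DESeq2 size factors (0.00441), DESeq2 (0.00440) and the groups alone (0.00327). With 1 library left out, values that crossed 0 ran from -0.131 to 0.0419 for Mrps18a and -0.0665 to 0.0352 for Mrps9 in PBS versus uninjured, -0.0534 to 0.0967 for Nrf1 in gel versus PBS, and in gel versus uninjured -0.0827 to 0.135 for Gabpa, -0.181 to 0.0458 for Mrpl12, -0.0178 to 0.195 for Mrps12 and -0.0821 to 0.00527 for Polrmt. The causes were not tested. With 4 libraries a group and member counts of 92 or more, the values carry the spread between libraries as well as counting error.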
